A study of Mus musculus with 2 samples.

Results

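The genes described here are 9 of the 32285 genes in each count matrix. They were chosen by name for their roles in the release, restraint and feedback of Wnt signals. Earlier results of these data were known when the genes were chosen. The set holds 1 gene of Wnt release (Wls), 3 genes of secreted antagonists (Sfrp1, Sfrp2 and Dkk3), 1 receptor gene (Fzd5) and 4 genes that restrain or report the response inside the receiving cell (Axin2, Nkd1, Znrf3 and Sp5). Each gene was found once in both matrices. The 9 genes were followed through cells of the ciliary margin, retinal progenitors, neurons and the mesenchyme around the eye, separately in each library.

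Wnt proteins are secreted, lipid-modified signals that bind Frizzled receptors and, through the best known branch of the pathway, keep the protein β-catenin from being destroyed, so that it acts with TCF and LEF factors on target genes. Many of those targets, Axin2 among them, act back on the pathway and limit it, and secreted antagonists limit it outside the cell. In the mouse optic cup, Wnt/β-catenin signalling at the rim is known to favour ciliary margin and pigment cell fates over neural retina. That rim is the ciliary margin zone (CMZ), which adjoins the retinal progenitor cells (RPCs) of the neural retina.

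The cells came from optic cups of mouse embryos at stage E13.5 that carried an α-Cre transgene, written a-Cre in the series record, and a TdTomato reporter. α-Cre is driven by an enhancer of Pax6 that is active in the peripheral retina, and because the reporter stays on in the progeny of those cells, the sort by TdTomato selects a lineage and not cells that express Cre at that stage. There was 1 albino library (strain label Swizz ICR) and 1 pigmented library (strain label Tyrc2j), each from 3 pooled embryos and both with the same transgene and sort. Tyrc2j is the name of a tyrosinase allele that causes albinism, which conflicts with the title of the pigmented library. The libraries are named here by their titles, and if the titles were exchanged, every albino over pigmented ratio would turn over. Strain, pool, sex and library go together with pigmentation and cannot be told apart from it. With 1 library a group there is no replicate spread, and no test between groups was made.

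The albino matrix held 3676 cell barcodes with 46271969 unique molecular identifiers (UMIs, each counted as 1 RNA molecule), and the pigmented matrix held 6089 barcodes with 69965728 UMIs. After filtering, 3441 albino cells with a median of 11163 UMIs and 5670 pigmented cells with a median of 10295.5 UMIs remained, and the libraries shared 8 barcodes. Cells were clustered without the 9 genes and without 75 other Wnt pathway genes, and clusters were named from marker lists. CMZ-like cells numbered 303 in the albino library and 685 in the pigmented library, and RPC-like cells 997 and 1895. Neurogenic-like cells, which carry Atoh7 and Notch ligands, numbered 646 albino and 1195 pigmented, retinal ganglion cell (RGC)-like cells 706 albino and 573 pigmented, and mesenchyme-like cells 124 albino and 219 pigmented. The sorted cells thus included types from outside the retina. Summed CMZ markers reached 1027 UMIs per 1000000 in albino and 1273 in pigmented CMZ-like cells, against 383 and 397 in RPC-like cells. Summed mesenchyme markers reached 3673 and 3543 in mesenchyme-like cells and stayed at 4.35 and 5.39 in CMZ-like cells. In CMZ-like cells 98.3% of the albino cells and 36.2% of the pigmented cells carried Xist without Y-linked UMIs.

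A level, written CPM, is the sum of a gene's UMIs in all cells of a class per 1000000 UMIs of those cells. Intervals are exact 95% intervals that cover counting error only and hold no difference between embryos. CPM values of different genes are not compared with each other, since they are not scaled by length.

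Wls (ENSMUSG00000028173, chr3:159839672-159938664 on the plus strand of GRCm38) encodes the carrier that takes Wnt proteins to the cell surface. Wls was a gene of the mesenchyme-like and pigment-like cells, with a low level in the CMZ-like cells and almost none in the neural retina. Mesenchyme-like cells held 126 CPM (interval 110 to 145, 205 UMIs) in the albino library and 111 CPM (99.8 to 124, 333 UMIs) in the pigmented library, which was 51.9% and 58.0% of all Wls UMIs of those libraries. CMZ-like cells held 7.09 CPM (4.82 to 10.1, 31 UMIs) in the albino library and 8.62 CPM (6.91 to 10.6, 88 UMIs) in the pigmented library. RPC-like cells held 2 Wls UMIs in 997 albino cells and 0 in 1895 pigmented cells, and RGC-like cells held 0 in both libraries. In the small group of retinal pigment epithelium (RPE)-like cells, 16 albino and 43 pigmented, Wls stood at 253 and 241 CPM. Macrophage-like cells came next at 49.0 and 57.3 CPM from 14 and 13 UMIs, and surface ectoderm-like cells had 17.6 and 44.0 CPM. The defining RPE markers summed to 16.7 CPM in albino and 22.9 CPM in pigmented CMZ-like cells, against 7087 and 4346 CPM in the RPE-like cells.

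Sfrp1 and Sfrp2 encode secreted Frizzled-related proteins, which bind Wnt proteins outside the cell. Their levels differed in opposite directions between CMZ-like and RPC-like cells, and both were low in neurogenic-like and RGC-like cells. Sfrp1 (ENSMUSG00000031548, chr8:23411502-23449632, plus strand) was higher in the CMZ-like cells, at 70.9 CPM (63.2 to 79.3) in the albino library and 74.35 CPM (69.2 to 79.8) in the pigmented library. In RPC-like cells Sfrp1 had 40.1 CPM in the albino library and 47.1 CPM in the pigmented library, and in neurogenic-like cells 9.94 and 12.7 CPM. Mesenchyme-like cells had 46.9 and 44.5 CPM, close to the RPC-like level, and RPE-like cells had 461 and 298 CPM, although 1 of the 16 albino RPE-like cells held 60.7% of that class's Sfrp1 UMIs.

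Sfrp2 (ENSMUSG00000027996, chr3:83766321-83774316, plus strand) had its highest level in RPC-like cells, with 2702 CPM in the albino library and 2791 CPM in the pigmented library, and these cells held 64.2% and 65.7% of the Sfrp2 UMIs of their libraries. CMZ-like cells came second with 1446 CPM in the albino library and 1253 CPM in the pigmented library. The level was far lower in neurogenic-like cells, at 227 and 253 CPM, and in RGC-like cells, at 30.2 and 38.5 CPM. Surface ectoderm-like cells had 819 and 860 CPM of Sfrp2. These cells also carried RPC markers at a summed 1519 and 1278 CPM and RGC markers at 4747 and 3205 CPM, and the part of those RNAs in the ectoderm values was not tested. Sfrp2 exons overlap those of Gm26771 on the other strand. The sources used here do not state whether reads were counted by strand, so the Sfrp2 values are uncertain to that extent.

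Dkk3 (ENSMUSG00000030772, chr7:112116017-112159057, minus strand) encodes a secreted protein of the Dickkopf family that is divergent from the members known to block the LRP co-receptors. The first place for Dkk3 was shared by progenitors and by a class of young neurons. RPC-like cells had 253 CPM in the albino library and 257 CPM in the pigmented library, and amacrine or horizontal-like cells had 219 and 251 CPM, a difference within counting error in each library. CMZ-like cells had 172 CPM in the albino library and 151 CPM in the pigmented library, above the neurogenic-like cells at 87.5 and 96.6 CPM. RGC-like cells held 18.9 and 21.1 CPM and mesenchyme-like cells 14.2 and 21.8 CPM.

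Fzd5 (ENSMUSG00000045005, chr1:64730558-64737751, minus strand) encodes a Frizzled receptor with a known part in eye development. It was a progenitor gene in these cells, with 149 CPM in albino and 152 CPM in pigmented RPC-like cells. CMZ-like cells held 78.0 CPM (69.9 to 86.7, 341 UMIs) in the albino library and 56.1 CPM (51.6 to 60.9, 573 UMIs) in the pigmented library. Neurogenic-like cells held 26.1 and 33.2 CPM and RGC-like cells 3.8 and 5.36 CPM. The order RPC-like, CMZ-like, neurogenic-like was the same in both libraries, and each step was beyond counting error. Fzd5 exons overlap those of Gm38058 on the other strand, with the same limit as for Sfrp2.

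Axin2 (ENSMUSG00000000142, chr11:108920349-108950783, plus strand) encodes a scaffold of the complex that destroys β-catenin and is a widely used readout of Wnt/β-catenin signalling. Its level was high in the mesenchyme, intermediate in the CMZ and low in the progenitors. Mesenchyme-like cells had 55.5 CPM (44.6 to 68.2, 90 UMIs) in the albino library and 45.5 CPM (38.2 to 53.8, 136 UMIs) in the pigmented library. CMZ-like cells had 6.18 CPM (4.07 to 8.99, 27 UMIs) in the albino library and 9.99 CPM (8.15 to 12.1, 102 UMIs) in the pigmented library. RPC-like cells had 1.41 CPM from 16 UMIs and 1.53 CPM from 30 UMIs. Neurogenic-like cells held 3.59 and 3.24 CPM and RGC-like cells 2.95 and 3.17 CPM, so the neurogenic-like and ganglion cells lay above the progenitors. Amacrine or horizontal-like cells had 7.73 CPM from 5 albino UMIs and 5.93 CPM from 6 pigmented UMIs, within counting error of the CMZ-like level in each library. Photoreceptor-like cells had 5.68 CPM in the albino library, also within counting error of the CMZ-like level, and 2.32 CPM in the pigmented library. RPE-like cells had 71.7 CPM in the albino library, where 1 cell held 57.1% of the 21 UMIs, and 26.3 CPM in the pigmented library. Axin2 likewise overlaps exons of Gm11670 on the other strand.

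Sp5 (ENSMUSG00000075304, chr2:70474923-70477729, plus strand) encodes a zinc finger transcription factor that is a direct Wnt target in several tissues. Mesenchyme-like cells held 86.5% of all Sp5 UMIs in the albino library and 87.1% in the pigmented library. The level was 19.7 CPM (13.498 to 27.9) from 32 UMIs in 9 albino cells and 18.1 CPM (13.6 to 23.6) from 54 UMIs in 14 pigmented cells. Single cells held 31.2% and 25.9% of those UMIs. CMZ-like cells held 0 UMIs in the albino library and 7 in the pigmented library, and RPC-like cells held 0 in both.

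Nkd1 and Znrf3 had no steep step between the rim and the progenitors. Nkd1 (ENSMUSG00000031661, chr8:88521354-88594884, plus strand), whose protein binds Dishevelled and dampens the signal inside the cell, had 45.6 CPM in albino and 41.8 CPM in pigmented mesenchyme-like cells. RPC-like cells had 42.1 and 43.45 CPM of Nkd1, CMZ-like cells 32.7 and 30.2 CPM, and RGC-like cells 20.1 and 19.1 CPM. Znrf3 (ENSMUSG00000041961, chr11:5276324-5444847, minus strand), whose protein is a membrane ubiquitin ligase that removes Frizzled receptors from the surface, had 6.63 CPM in albino and 7.93 CPM in pigmented CMZ-like cells. RPC-like cells had 5.54 and 6.99 CPM of Znrf3, mesenchyme-like cells 3.08 and 3.35 CPM from 5 and 10 UMIs, and RGC-like cells 2.0 and 1.22 CPM. The CMZ-like and RPC-like levels of Znrf3 differed by less than counting error in each library. Among classes with at least 20 cells, the highest Znrf3 level was not in CMZ-like cells. It was 26.3 CPM from 11 UMIs in pigmented RPE-like cells and 7.73 CPM from 5 UMIs in albino amacrine or horizontal-like cells. Neither was beyond counting error of the next class.

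**Figure D1:**
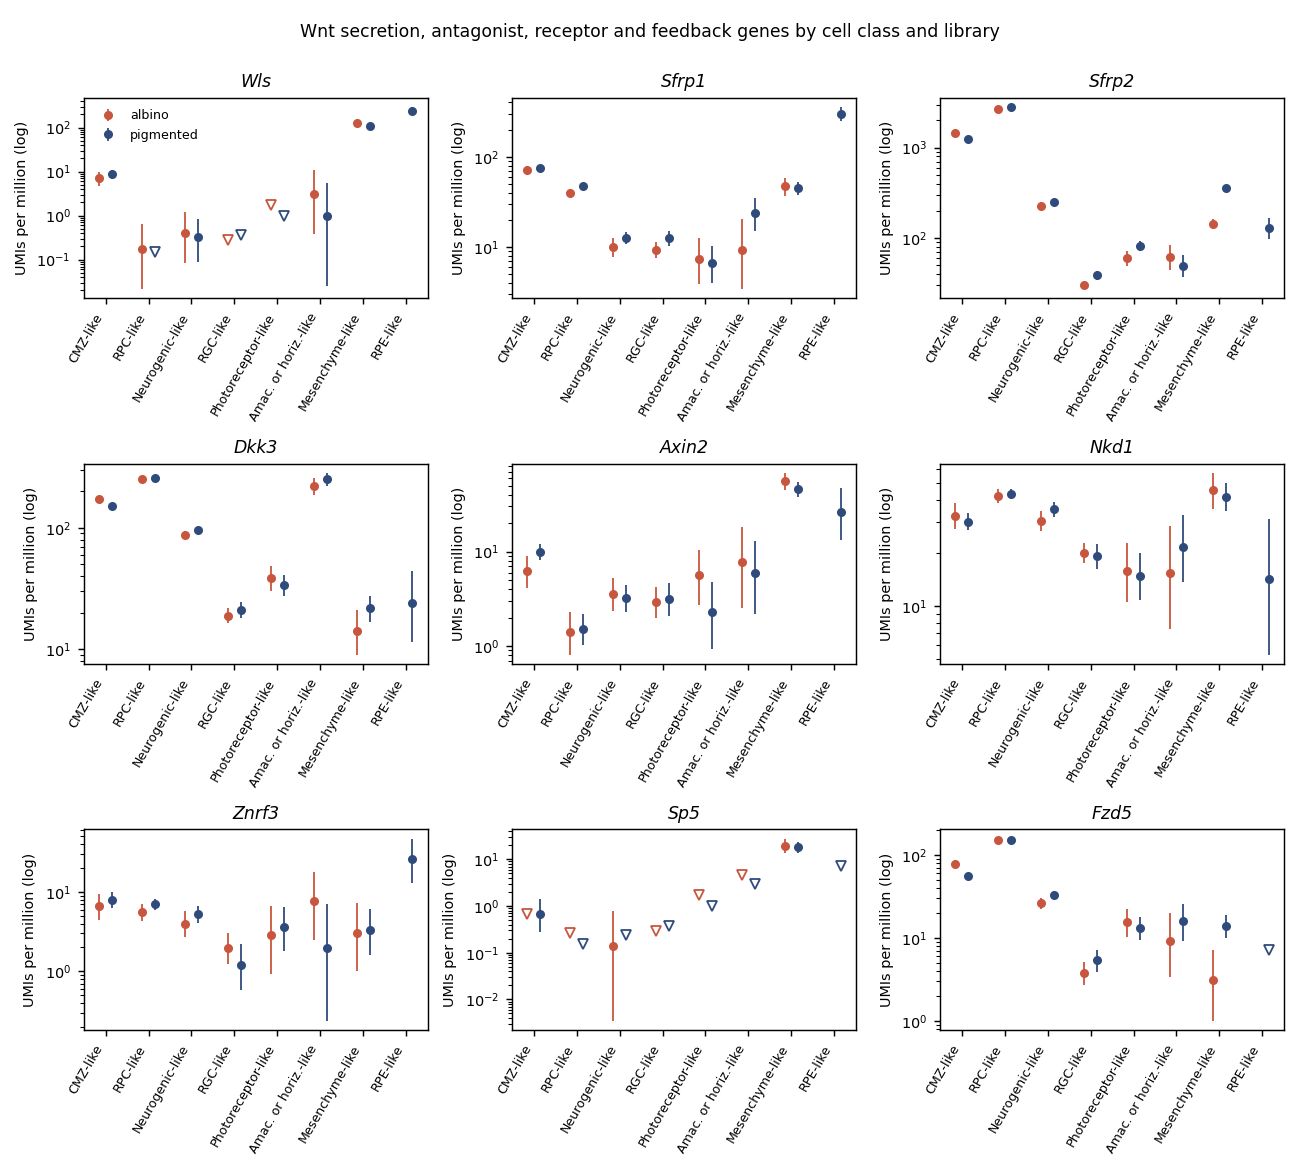
Levels of the 9 genes in UMIs per 1000000 (log axis) by cell class, with albino in red to the left of pigmented in blue and exact 95% Poisson intervals as bars; open triangles are classes with 0 UMIs, drawn at the level of 3 UMIs, and the 16 albino RPE-like cells, the surface ectoderm-like cells and the macrophage-like cells are not drawn. Wls, Axin2 and Sp5 lie highest in mesenchyme-like cells among the classes drawn in the albino library, at 126, 55.5 and 19.7 CPM, while Sfrp2 and Fzd5 lie highest in RPC-like cells of both libraries.

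The sequence just before the start of transcription is shown for the pair that was highest in mesenchyme-like cells, among the classes with at least 20 cells in a library, and for the pair that was highest in RPC-like cells. Each is the 250 bases before the RefSeq start, written 5′ to 3′ on the strand of the gene in GRCm38.p6, and capitals mark a match to the TCF and LEF core motif CTTTGAT on either strand. The windows are chr11:108920099-108920348 (plus strand) for Axin2, chr2:70474673-70474922 (plus strand) for Sp5, chr3:83766071-83766320 (plus strand) for Sfrp2 and chr1:64737751-64738000 (minus strand) for Fzd5.
Axin2: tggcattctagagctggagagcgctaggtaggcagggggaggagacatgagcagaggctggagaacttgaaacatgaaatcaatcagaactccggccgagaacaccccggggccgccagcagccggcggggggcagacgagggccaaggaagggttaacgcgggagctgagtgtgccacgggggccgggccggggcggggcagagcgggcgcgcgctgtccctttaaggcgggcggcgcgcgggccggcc
Sp5: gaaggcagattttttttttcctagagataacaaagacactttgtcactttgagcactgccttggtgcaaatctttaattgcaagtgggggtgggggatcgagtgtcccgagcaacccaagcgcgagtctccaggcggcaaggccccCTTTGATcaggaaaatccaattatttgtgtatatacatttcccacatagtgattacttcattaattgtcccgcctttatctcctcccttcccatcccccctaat
Sfrp2: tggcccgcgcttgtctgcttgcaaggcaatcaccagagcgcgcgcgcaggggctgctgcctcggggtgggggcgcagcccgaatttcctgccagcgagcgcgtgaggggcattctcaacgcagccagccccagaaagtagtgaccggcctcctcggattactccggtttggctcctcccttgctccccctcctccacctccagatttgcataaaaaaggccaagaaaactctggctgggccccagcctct
Fzd5: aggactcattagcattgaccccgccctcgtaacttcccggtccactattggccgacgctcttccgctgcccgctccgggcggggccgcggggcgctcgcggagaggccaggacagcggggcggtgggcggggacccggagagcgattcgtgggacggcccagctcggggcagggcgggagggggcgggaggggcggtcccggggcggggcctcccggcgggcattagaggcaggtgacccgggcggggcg
The Sp5 window holds 1 match, on the plus strand and 104 bases before the start. The other windows shown hold none, and neither do those of Wls and Nkd1, so 1 of the 6 genes with a window in the table has a match. Over all 32851 windows of the table, 1053 (3.21%) hold one. The Nkd1 window, chr8:88527383-88527632, lies inside the gene positions given above for Nkd1 and not before their start. A match is a run of letters and was not examined for binding, and these windows leave out most intron sequence and distant enhancers. The share of G and C was 76.4% in the Fzd5 window, 69.2% for Axin2, 63.6% for Sfrp2 and 46% for Sp5, beside a median of 52.4% over all windows.

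The first comparison asked how the genes differ between the rim and the neural retina, within each library. A gene counts as past the threshold when its ratio is beyond 1.5-fold and it has at least 20 UMIs over both classes. Of the 8 genes measured, Wls, Sfrp1 and Axin2 were past 1.5-fold higher in CMZ-like than in RPC-like cells of both libraries, and Sfrp2 and Fzd5 were past it lower in both. That is 3 of 8 higher, against 4.44% of all genes measured in both libraries, and 2 of 8 lower, against 5.83%. In the albino library 5 of 8 were past the threshold in either direction, against 17% of all genes, and in the pigmented library 6 of 8, against 21%. These clusters were built from other genes of the same cells, and the set was chosen with earlier results of these data known. The ratios thus describe the classes and are not a test.

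Wls had the widest gap, 40.3-fold (10.3 to 348) higher in albino CMZ-like than RPC-like cells and at least 56.3-fold higher in pigmented ones, where the 0 UMIs of the RPC-like cells were set to 3. Over the settings tried, these Wls values ranged between 18.1 and 74.0 in the albino library and between 19.97 and 64.0 in the pigmented library, bounds included. Axin2 was 4.39-fold (2.28 to 8.72) higher in CMZ-like cells of the albino library and 6.53-fold (4.31 to 10.2) higher in those of the pigmented library. The Sfrp1 ratio was 1.77 (1.53 to 2.05) in the albino library and 1.58 (1.43 to 1.74) in the pigmented library. The pigmented Sfrp1 ratio fell short of 1.5-fold, at 1.44 with at most 5% mitochondrial UMIs and at 1.46 at resolution 0.5. The Wnt carrier, the feedback scaffold and 1 secreted antagonist thus all leaned to the rim. In the opposite direction, the Sfrp2 ratio of CMZ-like over RPC-like was 0.535 in the albino library and 0.449 in the pigmented library. Fzd5 had ratios of 0.522 (0.464 to 0.587) and 0.369 (0.337 to 0.404), and Dkk3 had 0.680 (0.627 to 0.737) and 0.588 (0.555 to 0.623), so that Dkk3 was past 1.5-fold in the pigmented library alone. The Nkd1 ratios were 0.777 (0.640 to 0.938) and 0.694 (0.608 to 0.792). With a coarser clustering at resolution 0.5, the Axin2 ratio was 2.44 in the albino and 2.98 in the pigmented library, still past the threshold, and Znrf3 passed it at 1.55 and 1.54.

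Levels were also followed along a marker score within the CMZ-like and RPC-like cells. The score uses the marker lists that named these classes, so its bins are not independent of the classes and give no separate support. CMZ-like and RPC-like cells were put in order by the mean level of the CMZ markers minus that of the RPC markers, and 5 bins of this score were made over both libraries. From the lowest bin to the highest, albino Fzd5 levels ran 168, 149, 140, 130 and 59.6 CPM and pigmented levels 149, 166, 136, 136 and 47.6 CPM. The fall was thus steepest at the last step, into the cells with the most CMZ marker RNA. Wls was at or under 0.575 CPM in the first 4 bins of the albino library and at or under 0.335 CPM in those of the pigmented library, and reached 10.3 CPM in the last bin of each. Axin2 climbed earlier in the pigmented library, with 1.18, 1.15, 3.01, 4.35 and 9.49 CPM, than in the albino library, with 1.51, 1.70, 0.946, 2.87 and 6.85 CPM, although the intervals of the libraries overlap in every bin. Dkk3 fell at each step in both libraries, to 133 CPM in the last albino bin and 125.5 CPM in the last pigmented bin, against 299.7 and 313 CPM in the first. Sfrp2 had 1259 CPM in the last albino bin and 1064 CPM in the last pigmented bin, against 2893 and 3193 CPM in the first. Between the last and the first bin, Wls, Axin2, Sfrp2, Dkk3 and Fzd5 differed by more than 1.5-fold in the same direction in both libraries. The share of all genes past 1.5-fold between these bins was not worked out, so no weight is put on their number. Sfrp1 stayed between 41.3 and 45.3 CPM in the first 4 albino bins and reached 71.6 CPM in the last, and between 47.7 and 53.1 CPM in the first 4 pigmented bins, reaching 71.3 CPM.

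**Figure D2:**
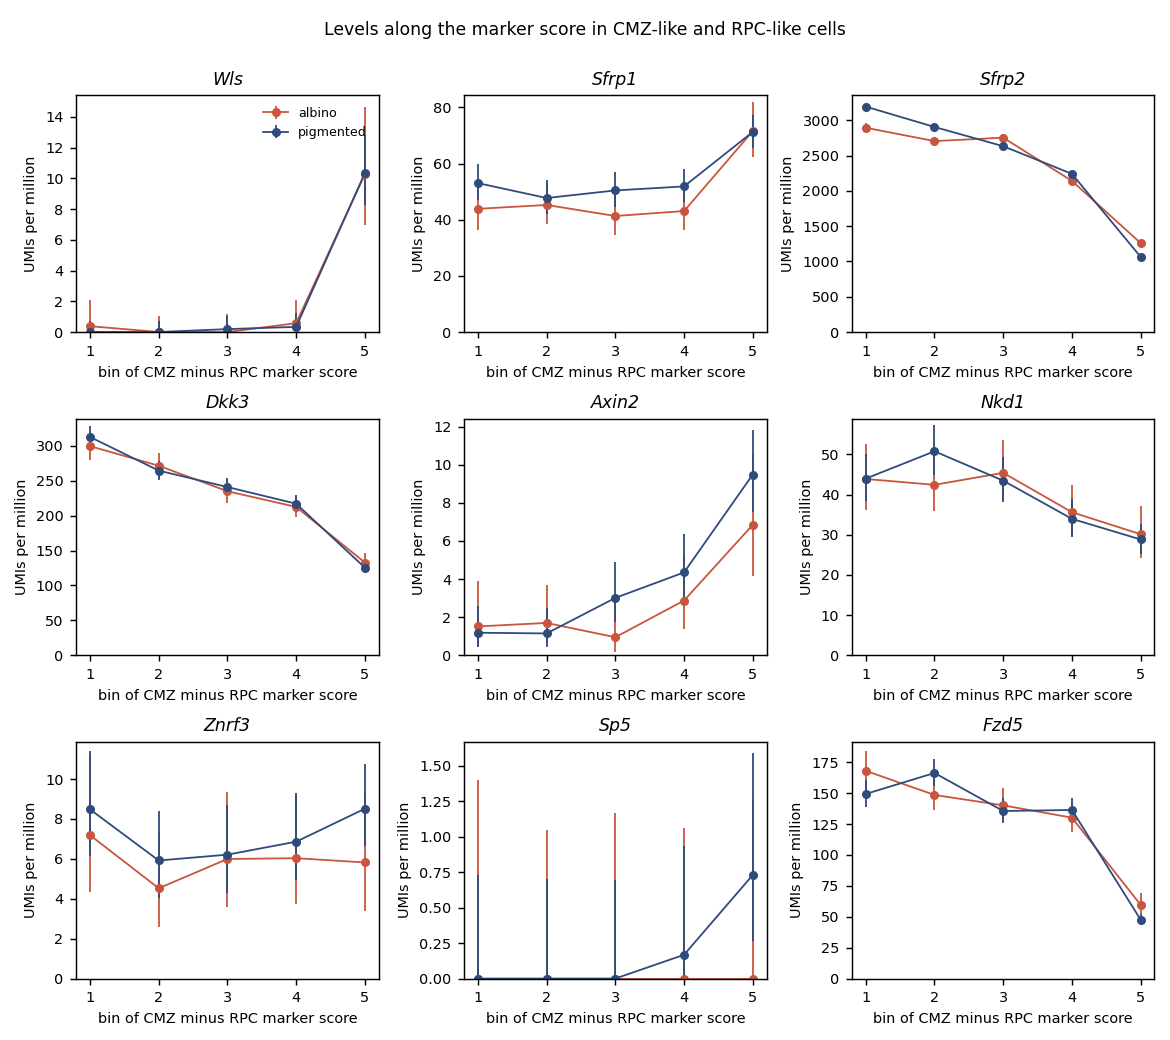
Levels in UMIs per 1000000 (linear axes from 0) of the 9 genes in 5 bins of CMZ marker score minus RPC marker score over the CMZ-like and RPC-like cells, albino in red and pigmented in blue, with exact 95% Poisson intervals as bars. Wls stays near 0 until the last bin, where it reaches 10.3 CPM in both libraries, and Fzd5 reaches its lowest level there, at 59.6 CPM in the albino and 47.6 CPM in the pigmented library.

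The CMZ-like class was made of clusters 4 and 9, with 168 and 135 albino cells and 439 and 246 pigmented cells. Wls lay mainly in cluster 4, at 13.3 CPM in the albino and 12.9 CPM in the pigmented library, against 1.70 and 2.61 CPM in cluster 9. The ratio of cluster 9 over cluster 4 was 0.128 (0.0325 to 0.367) in the albino library and 0.203 (0.0971 to 0.383) in the pigmented library. Sfrp2 was higher in cluster 9, with ratios of 1.51 and 1.59, and Fzd5 leaned the same way with 1.28 and 1.35. Cluster 9 thus lay closer to the RPC-like values for these genes. Between these clusters 23.2% of all genes in the albino library and 20.2% in the pigmented library were past 1.5-fold.

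Shares of cells with a UMI gave the same order after each cell was thinned to 5000 UMIs, which left out 292 albino and 365 pigmented cells. Fzd5 was seen in 31.7% of albino and 22.5% of pigmented CMZ-like cells, against 51.4% and 50.5% of RPC-like cells. RGC-like cells, which had the lowest Fzd5 level among the neural classes, gave 2.06% and 2.33% as a background. The median depths before thinning were 13099 and 14298 UMIs in CMZ-like cells, 10178 and 9576 in RPC-like cells and 14395 and 13830 in RGC-like cells, and the shares without thinning were 51.8% and 48.3% in CMZ-like, 70.6% and 71.3% in RPC-like and 4.53% and 6.28% in RGC-like cells. Wls was seen in 3.10% of albino and 2.69% of pigmented CMZ-like cells after thinning, against 0 of 945 albino and 0 of 1802 pigmented RPC-like cells, which allows shares of cells with a Wls UMI at this depth of up to 0.317% and 0.166% (3 cells of the total) and sets no limit on cells that express Wls. RGC-like cells held none after thinning either. In mesenchyme-like cells the thinned Wls share was 42.7% in the albino and 39.6% in the pigmented library, and the share without thinning 68.5% and 64.8%, beside 5.28% and 6.13% of CMZ-like cells. Axin2 was seen in 3.45% of albino and 6.29% of pigmented CMZ-like cells after thinning, against 0.741% and 0.777% of RPC-like and 1.47% and 2.33% of RGC-like cells. Without thinning, the Axin2 shares were 8.25% and 13.4% of CMZ-like cells against 1.5% and 1.48% of RPC-like cells. The rim cells that carried Wls or Axin2 RNA were thus a minority at this depth, while Sfrp2 was seen in 94.1% of albino and 90.6% of pigmented CMZ-like cells, 99.7% and 99.6% of RPC-like cells and 10.3% and 13.6% of RGC-like cells after thinning.

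The second comparison asked what is lost when progenitors become neurons. Sfrp2, Fzd5, Dkk3 and Sfrp1 were all lower in neurogenic-like than in RPC-like cells. The ratios were 0.0840 in the albino and 0.0907 in the pigmented library for Sfrp2, 0.175 and 0.218 for Fzd5, 0.346 and 0.376 for Dkk3 and 0.248 and 0.269 for Sfrp1. Axin2 ran the other way, with ratios of 2.55 (1.32 to 5.09) in the albino and 2.11 (1.28 to 3.52) in the pigmented library. In this comparison 36.9% of all genes in the albino library and 36.6% in the pigmented library were past 1.5-fold. In RGC-like over RPC-like cells the Fzd5 ratio was 0.0255 and 0.0353 and the Sfrp2 ratio 0.0112 and 0.0138, while 59.2% and 59.8% of all genes were past 1.5-fold.

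Mesenchyme-like cells differed from the neural retina in most of the 9 genes. Against RPC-like cells of the same library, Wls, Axin2 and Sp5 were past 1.5-fold higher and Sfrp2, Dkk3, Znrf3 and Fzd5 past it lower, which makes 7 of 9 in each library, beside 43% of all genes in the albino and 43.7% in the pigmented library. The Axin2 ratio was 39.5 (23.0 to 72.0) in the albino and 29.7 (19.9 to 45.8) in the pigmented library. Against CMZ-like cells, Wls was 17.8-fold (12.2 to 26.9) higher in albino and 12.9-fold (10.2 to 16.5) higher in pigmented mesenchyme-like cells, and Axin2 was 8.99-fold (5.79 to 14.4) and 4.56-fold (3.5 to 5.95) higher. Sp5 was at least 28.8-fold higher in albino mesenchyme-like than CMZ-like cells, counted against 3 UMIs, and 26.4-fold (12.0 to 68.7) higher in pigmented ones. In this comparison 3 of 9 genes were past 1.5-fold higher and 5 lower in each library, beside 37.7% of all genes in either direction in the albino and 36.9% in the pigmented library. The mesenchyme-like and the CMZ-like cells thus shared a raised Wls and Axin2 level relative to progenitors, at very different heights.

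The third comparison, and the one the titles of the libraries pose, set albino against pigmented cells of the same class. In CMZ-like cells 1 of 8 measured genes was past 1.5-fold, Axin2, which was lower in albino cells, beside 8.33% of all genes. The median log2 ratio of the 8 genes was 0.03, against 0.02 over all genes. The Axin2 ratio was 0.618 (0.389 to 0.952), from 27 albino and 102 pigmented UMIs. Within cluster 4 it was 0.510 (0.232 to 1.01) and within cluster 9 it was 0.695 (0.372 to 1.24), and over the settings tried it ranged between 0.498 and 0.729, below 1 in each but not past 1.5-fold in all of them. Fzd5 was higher in albino CMZ-like cells, at a ratio of 1.39 (1.21 to 1.59). A single albino cell held 12.6% of its UMIs there, and without the cell with the most UMIs in each library the ratio was 1.28. Sfrp2 had a ratio of 1.15 (1.12 to 1.19), Dkk3 of 1.14 (1.04 to 1.24), Nkd1 of 1.08 (0.883 to 1.33) and Wls of 0.823 (0.528 to 1.25). Summed RPC markers stood at 2709 CPM in albino and 2380 CPM in pigmented CMZ-like cells, and summed CMZ markers at 1027 and 1273 CPM. The part of this shift in marker RNA in the Fzd5, Sfrp2, Dkk3 and Axin2 ratios was not tested.

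In RPC-like cells 0 of 7 measured genes were past 1.5-fold between the libraries, beside 5.5% of all genes, and in neurogenic-like cells 0 of 7, beside 6.45%. Fzd5 differed by less than counting error in RPC-like cells and had a ratio of 0.787 (0.659 to 0.937) in neurogenic-like cells. Sfrp1 had a ratio of 0.851 (0.759 to 0.953) in RPC-like cells. In RGC-like cells 1 of 7 was past 1.5-fold, Znrf3, with a ratio of 1.64 (0.738 to 3.90) from 21 albino and 10 pigmented UMIs, beside 6.55% of all genes. With no doublet removal the Znrf3 ratio there was 0.929, in the other direction, and over the settings tried it reached up to 2.80. Over all kept cells none of the 9 genes was past it, beside 10.3% of all genes.

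**Figure D3:**
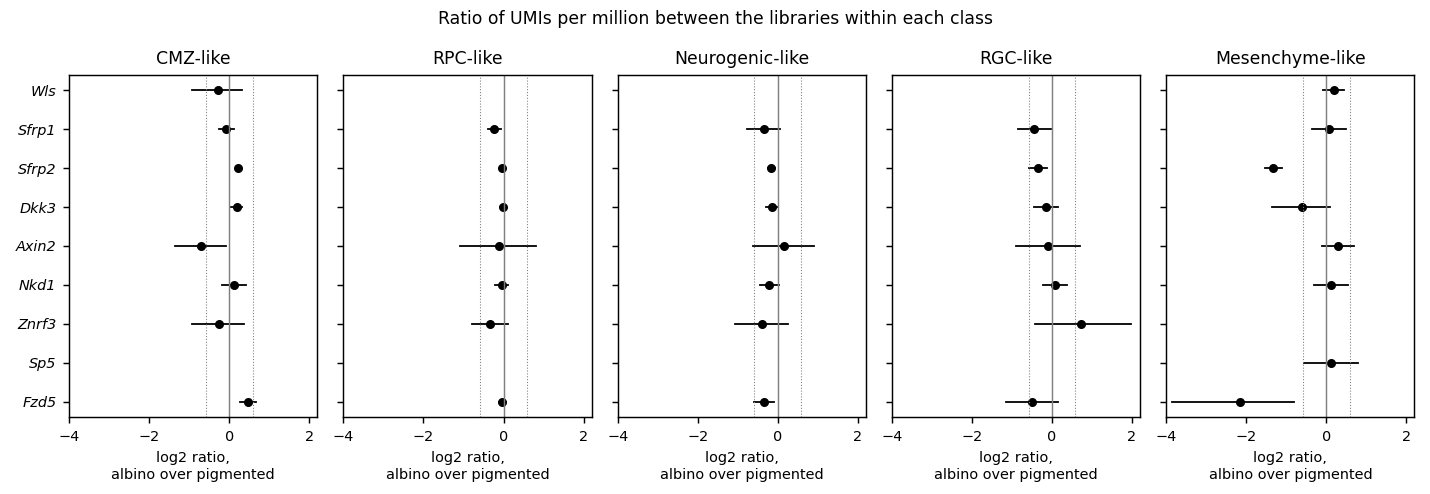
Ratio of albino over pigmented UMIs per 1000000 (log2 axis) for each gene in 5 classes, with 95% intervals for counting error as bars; dotted lines mark 1.5-fold, and genes with under 20 UMIs over both libraries are not drawn. Axin2 is past the line in CMZ-like cells at a ratio of 0.618, none is past it in RPC-like or neurogenic-like cells, and Sfrp2 (0.399) and Fzd5 (0.225) lie far to the low side in mesenchyme-like cells.

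In mesenchyme-like cells 3 of 8 measured genes were past 1.5-fold, all lower in the albino library. Of all genes 14.1% were past it in either direction and 8.38% lower. Sfrp2 had 143 CPM (125 to 163) in albino and 358 CPM (337 to 381) in pigmented cells, a ratio of 0.399 (0.345 to 0.460). Fzd5 had 3.08 CPM from 5 UMIs and 13.7 CPM from 41 UMIs, a ratio of 0.225 (0.0693 to 0.568), and Dkk3 had a ratio of 0.652 (0.387 to 1.06). These are the genes that were high in RPC-like cells, and summed RPC markers were at 218 CPM in albino and 436 CPM in pigmented mesenchyme-like cells. When the mesenchyme-like cells with a UMI of the RPC markers Fgf15, Rax or Hes5 were left out, a step chosen after the values were seen, 103 albino and 154 pigmented cells remained. In them Sfrp2 had 101 CPM in albino and 271 CPM in pigmented cells, a ratio of 0.371, Dkk3 had a ratio of 1.16, and Fzd5 was down to 3 albino and 13 pigmented UMIs. The Dkk3 ratio rests on 19 albino and 24 pigmented UMIs. Cells without a UMI of these markers can still hold progenitor RNA, and its part in the ratios was not tested.

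Wls, Axin2 and Sp5, which were higher in mesenchyme-like than in CMZ-like and RPC-like cells, did not differ beyond counting error between the libraries in mesenchyme-like cells. The ratio was 1.13 (0.949 to 1.35) for Wls, 1.22 (0.924 to 1.60) for Axin2 and 1.09 (0.682 to 1.72) for Sp5. Of the pigmented mesenchyme-like cells 12.3% carried Xist without Y-linked UMIs, against 97.6% of the albino ones. With only such cells the Axin2 ratio was 4.13 and the Nkd1 ratio 1.86, from the few pigmented cells that are left.

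Other Wnt pathway genes, listed by role with earlier results of these data known, placed the 9 in context. Of 75 genes, 43 were measured in CMZ-like and RPC-like cells of both libraries. Past 1.5-fold higher in CMZ-like cells of both libraries were 14 (32.6%), against 4.44% of all genes, and past it lower were 2 (4.65%), against 5.83%. The lower ones were Fzd9 and Fzd10, named after their values were seen. The feedback and target genes were higher in 5 of 5, with Nkd2, a relative of Nkd1, at 17.6 CPM in albino and 22.4 CPM in pigmented CMZ-like cells, against 1.58 and 2.40 CPM in RPC-like cells. Nkd2 was thus higher at the rim, with ratios of 11.1 (6.60 to 19.8) and 9.36 (6.81 to 13.1), where Nkd1 was somewhat lower. Tcf7 and Lef1, which encode partners of β-catenin on DNA, had ratios of 4.34 and 5.41 for Tcf7 and 3.16 and 2.71 for Lef1, and Bambi, a target that encodes a pseudoreceptor of the BMP pathway, had 2.12 and 2.06. Among the antagonists 3 of 4 measured were higher. Dkk1, a Dickkopf that does block LRP co-receptors, had 33.6 CPM in albino and 29.2 CPM in pigmented CMZ-like cells, against 1.32 and 0.918 CPM in RPC-like cells, ratios of 25.5 (15 to 46.7) and 31.8 (19.8 to 54.4). Dkk1 and Dkk3 thus differed in opposite directions between CMZ-like and RPC-like cells. Notum, whose enzyme removes the lipid from Wnt proteins, had ratios of 32.8 (13.3 to 104) and 33.2 (17.6 to 70.5).

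Of the transduction genes 0 of 14 were past 1.5-fold in either direction in both libraries. Over all genes 4.44% were higher and 5.83% lower, and a count of 0 of 14 is near those shares. Ctnnb1, the β-catenin gene, had 162 CPM in albino and 155 CPM in pigmented CMZ-like cells, against 140 and 147 CPM in RPC-like cells. Among the receptors 4 of 14 were higher and 2 lower. Fzd3 leaned like Fzd5 with ratios of 0.736 (0.663 to 0.816) and 0.629 (0.584 to 0.676), so that it was past 1.5-fold in the pigmented library alone. Of the 19 ligand genes only 2 were measured in these cells. Wnt5a had 13.0 CPM in albino and 12.7 CPM in pigmented CMZ-like cells, against 5.19 and 7.65 CPM in RPC-like cells, and 167 and 154 CPM in mesenchyme-like cells. The mesenchyme-like cells also held Dkk2, at 199 and 143 CPM, and Rspo3, which encodes an R-spondin that enhances Wnt signals by counteracting Znrf3 and its relative Rnf43, at 48.7 and 69.3 CPM.

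**Figure D4:**
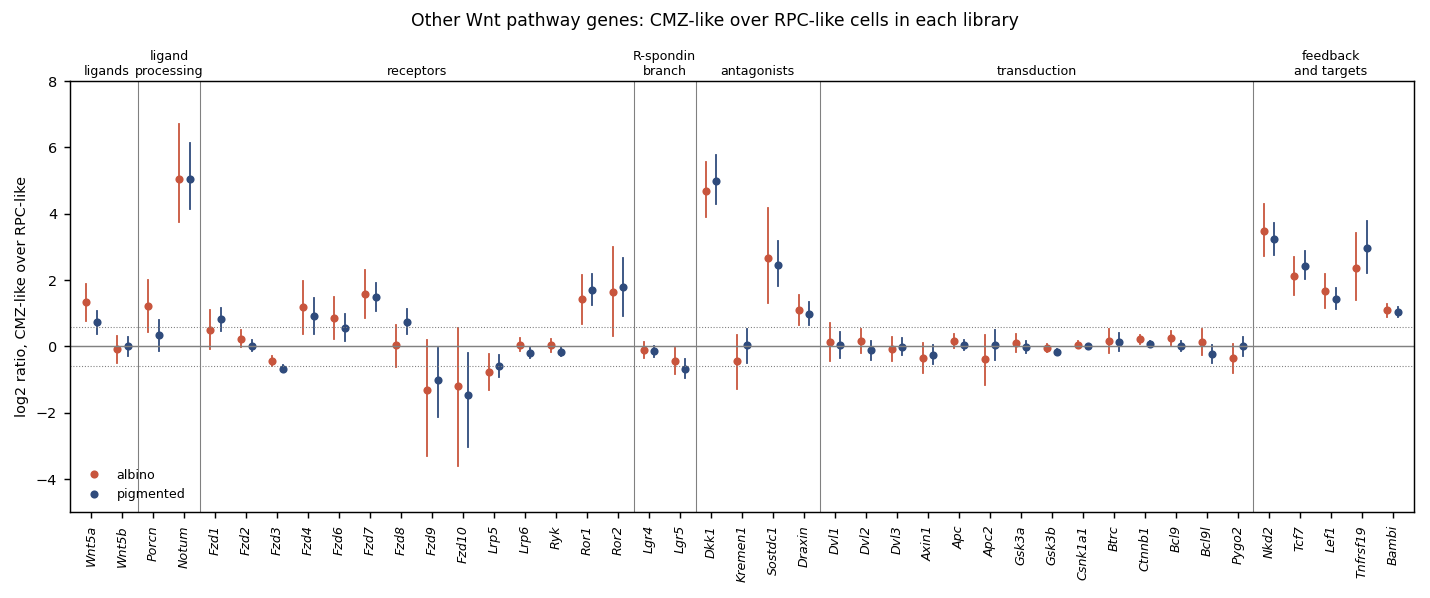
Ratio of CMZ-like over RPC-like UMIs per 1000000 (log2 axis) for the other Wnt pathway genes with at least 20 UMIs over both classes in each library, grouped by role, albino in red to the left of pigmented in blue, with 95% intervals for counting error and dotted lines at 1.5-fold. The 5 feedback and target genes all lie above the upper line, and the points of the 14 transduction genes lie between the lines.

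Between the libraries the wider list moved little in CMZ-like cells. Of 41 genes measured there, 2 were past 1.5-fold (beside 8.33% of all genes), both lower in albino cells, and the median log2 ratio was -0.02 against 0.02 over all genes. Fzd8, another Frizzled receptor gene, had 7.09 CPM in albino and 11.8 CPM in pigmented cells, a ratio of 0.603 (0.393 to 0.902). Sostdc1, a secreted antagonist of Wnt and BMP signals, had 3.89 and 7.35 CPM, a ratio of 0.529 (0.293 to 0.905). The 5 feedback and target genes of this list were not past 1.5-fold between the libraries.

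Likeness of pattern was measured as Pearson's r of log2(CPM + 10) over 19 points, each a class in a library with at least 20 cells. The points share their libraries and depth, and r is a description with no test. The genes most like Wls were Rbms1 (0.943), Dse (0.911) and Serpinb6a (0.909), and those most like Axin2 were Tagln (0.960), Tmem132c (0.958) and Pcolce (0.952). Fzd5 was most like Exosc7 (0.948) and Rfx2 (0.947). Sfrp2 was most like Pold1 (0.958), Xkr5 (0.948) and Id1 (0.938), Dkk3 like Riox1 (0.949), Rmst (0.897) and Ston2 (0.892), and Sfrp1 like Arhgef10 (0.952), Steap1 (0.938) and Il1rapl1 (0.933). Nkd1 was most like Eif4h (0.953), Txnl1 (0.948) and Gjc1 (0.942), and Znrf3 like Thtpa (0.864), Glb1l (0.858) and Ccn2 (0.857). Among the 9 genes the closest pairs were Axin2 with Sp5 (0.847), Sfrp2 with Fzd5 (0.841) and Dkk3 with Fzd5 (0.790), and Wls ran against Dkk3 (-0.558) and Fzd5 (-0.509). Nkd1 was closest to Sfrp2 (0.753) and Fzd5 (0.622) in the set, and Znrf3 to Sfrp1 (0.686).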

How the data were processed

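Single-cell 3′ libraries (10x Genomics v2 chemistry, per the labels) were deposited as UMI count matrices, 1 per library, with raw whole-number counts per gene and barcode. The matrix headers name Cell Ranger 5.0.1, while the submitters' processing notes give Cell Ranger 2.1.1 and mm10. Barcodes needed 500 or more genes and no more than 10% mitochondrial UMIs, and Scrublet doublets, 72 albino (1.96%) and 214 pigmented (3.51%) barcodes, were dropped. From both libraries together, 2000 variable genes (without the 9 genes, the wider Wnt list, sex, mitochondrial, ribosomal protein and haemoglobin genes) gave 30 principal components, a graph of 15 neighbours and 24 Leiden clusters at resolution 1.0. Each cluster was named for the best of 17 marker lists by mean log2 fold (pseudocount 10 CPM). The name needed a lead of 0.3, detection of 3 of its markers in 10% of the cells, and 10 leading genes that did not go against it. A cluster whose median UMI count in a library was over 3 times below that library's took no name unless markers of that name were among those 10 genes. Of the 24 clusters 20 were named, and the others hold 8.20% of albino and 9.33% of pigmented cells. The largest unnamed cluster, 142 albino and 266 pigmented cells, had mitosis genes such as Cenpf and Ccnb1 among its leading genes. Its best scores were close, 0.560 for CMZ and 0.480 for RPC, so its cells are in neither class nor in the score bins. Intervals are exact Poisson for levels, conditional exact binomial for ratios and Clopper-Pearson for shares, all at 95%. Free RNA in droplets is not part of them. No test was run, with 1 library per group. The intervals for levels and ratios and the 1.5-fold call were tested on simulated data. So were the clustering and naming, on RPC, mesenchyme and RGC types made by raising their markers. Doublet removal, thinning, the score bins, the likeness and the split of CMZ-like from RPC-like cells were not simulated.

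The genes and lists were chosen with earlier results of these data known. The named genes are the 9, the 3 most like each (200 UMIs or more), up to 4 per role of the wider list with the most UMIs, and genes of that list past 1.5-fold between libraries in CMZ-like cells with at least 50 UMIs. The values of 1 gene that this rule names are not reported here. TdTomato was not examined. Clustering used Scanpy 1.11.5, leidenalg 0.10.2 and scikit-learn 1.9.0, statistics SciPy 1.17.1 with NumPy 2.4.6, and figures matplotlib 3.10.9, under Python 3.11.15. Promoter windows are from RefSeq on GRCm38.p6, and gene positions from GENCODE on GRCm38.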

Additional observations from a re-analysis of the deposited data

Results flagged for a closer look

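In each case below, the albino over pigmented ratio of a gene lay above 1 in CMZ-like cells and below 1 in another class, with both counting intervals clear of 1. The difference between the classes was not tested, and each ratio rests on 1 library per group. The Sfrp2 ratio was 1.15 (1.12 to 1.19) in CMZ-like cells, beside 0.968 (0.955 to 0.982) in RPC-like cells. It was 0.897 (0.844 to 0.952) in neurogenic-like cells, 0.785 (0.670 to 0.920) in RGC-like cells and 0.399 (0.345 to 0.460) in mesenchyme-like cells. The Dkk3 ratio was 1.14 (1.04 to 1.24) in CMZ-like cells, beside 0.906 (0.822 to 0.998) in neurogenic-like cells. The Fzd5 ratio was 1.39 (1.21 to 1.59) in CMZ-like cells, beside 0.787 (0.659 to 0.937) in neurogenic-like cells and 0.225 (0.0693 to 0.568) in mesenchyme-like cells. Over the settings tried, the neurogenic-like ratio reached 1.02 for Sfrp2 and 1.005 for Dkk3, so these were not below 1 throughout. The other ratios given here stayed on their side of 1, although Dkk3 in CMZ-like cells fell to 1.006. Sfrp2, Dkk3 and Fzd5 were all higher in RPC-like than in CMZ-like cells in both libraries.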

How the results depend on the processing

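No paired analysis was possible because there is 1 library in each group. Counts of the 9 genes past 1.5-fold between the libraries moved with the settings where few genes were near the threshold. In CMZ-like cells the count was 1 and fell to 0 with at least 1000 genes per cell, with no doublet removal, at resolution 2.0, with the Wnt genes among the clustering genes, without cell cycle genes in the clustering, with no naming margin and at 2-fold, and was 2 (Axin2 lower, Fzd5 higher) with Xist-only cells. In RGC-like cells the count of 1 fell to 0 with at least 1000 genes per cell, at most 5% mitochondrial UMIs, 2-fold or at least 50 UMIs, was 2 with Xist-only cells or without the top cell, and was 3 with no doublet removal or with cells weighted equally. In neurogenic-like cells it was 1 (Sfrp1) in place of 0 at 5% mitochondrial UMIs. In mesenchyme-like cells it was 5 in place of 3 with Xist-only cells, and 1 (Sfrp2) without the cells carrying RPC marker UMIs. For CMZ-like over RPC-like in the albino library the count of 5 was 2 at 2-fold and 3 at 50 UMIs. A turn of direction was looked for only in ratios past 1.5-fold in the main setting. It was seen for Znrf3 in RGC-like cells (0.929 with no doublet removal). It was also seen for Dkk3 in mesenchyme-like cells (1.16 without the cells carrying RPC marker UMIs). The causes were not tested. The other 110 values of counts stayed within 1.5 times, and of the values of single genes 679 stayed within the counting interval and 67 moved out of it. Some of those that moved crossed 1 from a ratio not past 1.5-fold. The albino over pigmented ratio in neurogenic-like cells reached 1.02 for Sfrp2 and 1.005 for Dkk3. The pigmented CMZ-like over RPC-like ratio of Znrf3 fell to 0.777. The Sfrp2 ratio in mesenchyme-like cells stayed between 0.368 and 0.477. Low counts limit Wls, Axin2, Znrf3 and Sp5 in the retina.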

Other observations

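An unnamed cluster of shallow cells, 38 albino and 54 pigmented with a median of 1591 UMIs, held Sfrp2 at 6725 CPM in the albino library (674 UMIs) and 6181 CPM in the pigmented library (595 UMIs), above the RPC-like level of 2702 and 2791 CPM. Gm26771, which shares exon sequence with Sfrp2 on the opposite strand, is among the 10 leading genes of that cluster. The other genes of the set were also raised there relative to their RPC-like level where they are progenitor genes, with Dkk3 at 758 and 852 CPM and Fzd5 at 259 and 301 CPM. Sfrp1 was at 130 and 135 CPM in these cells, above its level of 70.9 and 74.35 CPM in CMZ-like cells. The cluster held 100225 albino and 96258 pigmented UMIs over all genes, so its Sfrp1 and Fzd5 levels rest on few UMIs. The share of all genes raised in this cluster was not worked out.

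Among the wider Wnt genes, Wnt6 was held by the surface ectoderm-like cells, at 68.4 CPM in 82 albino cells and 93.5 CPM in 25 pigmented cells.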
